A study of Mus musculus with 11 samples.

Results

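The genes described here encode proteins of the pre-mRNA splicing machinery. They were the rows of the deposited expression table whose symbols begin with Srsf and a digit, Hnrnp, Sf3a or Sf3b, or Snrp. There were 50 such genes of 10992 in the table: 10 SR proteins, 20 heterogeneous nuclear ribonucleoproteins (hnRNPs), 9 subunits of the SF3A and SF3B complexes and 11 Sm and snRNP proteins. Symbols alone picked the rows, with no measured value used. The symbol patterns themselves were chosen with earlier results of these data known. RNA was sequenced in bulk from regulatory T cells (Tregs), a CD4 lineage defined by Foxp3 that holds other lymphocytes in check. The cells came from visceral adipose tissue (VAT) or spleen of male mice aged 25 weeks and were sorted as live CD3+ CD4+ Foxp3+ cells. Every mouse carried Foxp3-YFPcre, a Cre recombinase expressed from Foxp3 and so active in Tregs. KO mice were Srebf2-flox/flox and WT mice were Srebf2-WT/WT, Srebf2 being the gene of a transcription factor that drives cholesterol synthesis. Levels were analysed in 3 VAT KO, 3 VAT WT, 2 spleen KO and 2 spleen WT libraries, both spleen groups with replicates 2 and 3. The labels do not say that the libraries came from separate mice, so the p-values below measure the spread between these libraries, part of which may be technical.

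Splicing removes introns through the spliceosome, which is built from small nuclear ribonucleoproteins (snRNPs). Sm proteins form a ring on the snRNA of most snRNPs, and the SF3A and SF3B complexes belong to the U2 snRNP, which selects the branch point of an intron. SR proteins bind exons and mostly favour their inclusion, while many hnRNPs bind nascent RNA and favour exon skipping, so that their balance helps to set which isoforms a cell makes. T cells change the splicing of genes such as Ptprc, which encodes CD45, when they are activated.

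The libraries were first checked against their labels. Srebf2 stood at 0.263 to 1.23 RPKM in VAT KO libraries, against 15.6 to 30.5 RPKM in VAT WT libraries, and at 1.59 to 2.59 RPKM in spleen KO libraries, against 10.5 to 23.2 RPKM in spleen WT libraries. RPKM is a read count made relative to the length of the gene and the size of the library. All 9 of the T cell and Treg markers looked for were present. Foxp3, 1 of them, stood at 13.3 to 16.4 RPKM in VAT KO and 14.6 to 15.6 RPKM in VAT WT libraries. In spleen Foxp3 stood at 7.82 to 8.87 RPKM in KO and 6.97 to 8.69 RPKM in WT libraries. The 9 markers did not move together between the tissues. In KO 6 had a higher mean log2 level in VAT than in spleen and 3 a lower one, with changes from −0.68 to 1.59. In WT 5 were higher and 4 lower, with changes from −1.03 to 1.76. Replicates correlated at 0.968 to 0.974 over all tested genes except in spleen WT, where replicates 2 and 3 correlated at 0.932. The calls that were lost without spleen WT replicate 2 are therefore named with the results. Where a spleen library is left out, 1 library of that group remains and its spread is taken from the other groups. Immediate early and dissociation genes, which cells induce during tissue digestion, differed between the tissues: their 22 members summed to 8074 to 8333 RPKM in VAT KO and 8912 to 10055 in VAT WT libraries, against 1233 to 1776 in spleen KO and 1280 to 1359 in spleen WT libraries. Of 8 myeloid markers 4 had rows, and these summed to 20.3 to 45.6 RPKM in VAT KO and 12.3 to 15.2 in VAT WT libraries, against 183 to 186 in spleen KO and 179 to 240 in spleen WT libraries, nearly all of it Ctss. The other 3 stayed below 4 RPKM in every library. Of 9 B cell markers 6 had rows, with sums of 53.5 to 105 RPKM in VAT KO and 53.3 to 199 in VAT WT, against 96.2 to 129 in spleen KO and 101 to 127 in spleen WT libraries. The depth of each library is unknown, because the values are not counts. In bulk RNA a lower level in each cell and a smaller share of cells that carry a transcript cannot be told apart.

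All 50 splicing genes were measured above 0 in all 10 libraries and passed the filter on low values. As RPKM, which is per length, their mean levels ran from 94.6 for Hnrnpa2b1, an RNA-binding repressor of exon inclusion, down to 2.23 for Hnrnpul2. Snrpb (85.2 RPKM), which encodes the Sm proteins B and B', and Hnrnpf (85.1 RPKM), which binds runs of G, followed, and their order was not separable from the spread of either gene. The highest of the SF3 subunits was Sf3b1, the large scaffold of SF3B, at 72.1 RPKM, and the highest SR protein was Srsf5 at 67.3 RPKM. Hnrnpll, a factor known for switching CD45 isoforms in activated and memory T cells, ranked in place 43 with 12.9 RPKM. Summed over the 50 genes, the level was 1526 ± 17.7 RPKM in VAT KO and 1462 ± 45.2 RPKM in VAT WT (SD, n = 3 each), against 1865 ± 32.2 RPKM in spleen KO and 1909 ± 143 RPKM in spleen WT (SD, n = 2 each). Every VAT library lay below every spleen library in this sum.

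**Figure D1:**
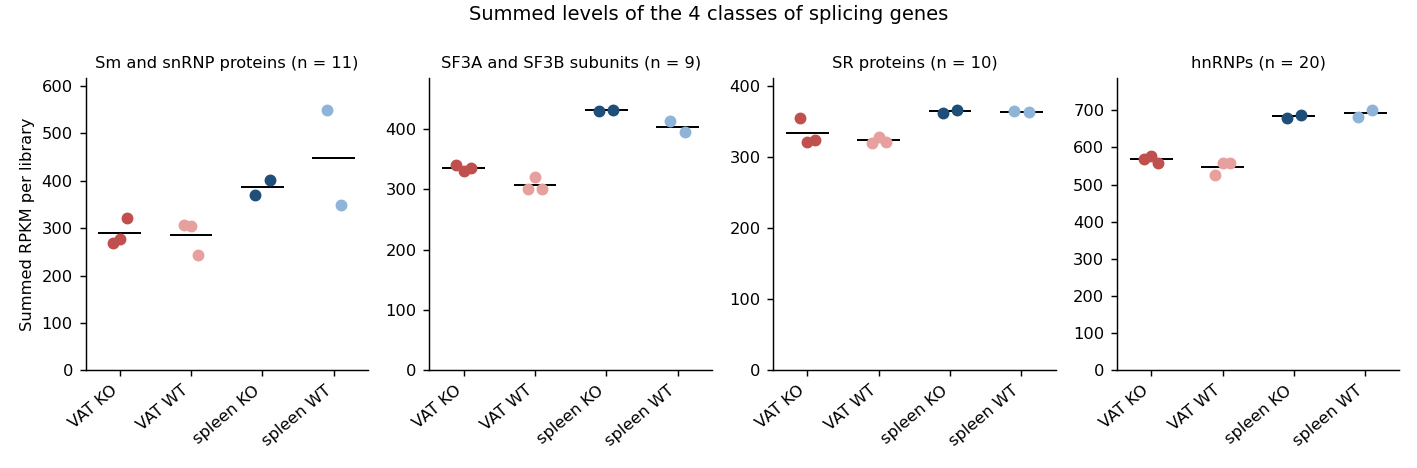
Summed RPKM (vertical axis) of the 4 classes of splicing genes in each library, one point per library, with the group mean as a line. Points of VAT KO and VAT WT lie below those of both spleen groups in every class, and the 2 spleen WT points stand far apart for the Sm and snRNP proteins (550 RPKM in replicate 2 and 348 RPKM in replicate 3).

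The first comparison asked whether Tregs of the fat and of the spleen differ in this machinery. In KO mice 43 of the 50 genes had a lower mean log2 level in VAT than in spleen, and in WT mice the number was also 43, against 58.6% and 59% of all 10429 tested genes. The comparisons share no library, and 41 of the 50 genes (82%) were below 0 in both, against 46.8% of all tested genes. The median log2 change of the 50 genes was −0.28 in KO and −0.41 in WT, against −0.09 and −0.12 over all tested genes. Once libraries were scaled by median ratios, which brought the median of all genes to −0.011 in KO and −0.005 in WT, the median of the splicing genes was −0.19 in KO and −0.29 in WT. Under that scaling 41 of 50 were below 0 in KO, with Snrpc and Srsf11 changing sign, and 40 of 50 in WT, with Sf3b2, Srsf2 and Srsf7 changing sign.

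Calls were made with limma on log2(RPKM + 1), at a Benjamini-Hochberg adjusted p under 0.05 over all tested genes. In KO, 4 of the 50 genes were called lower in VAT and 0 higher, against 6.94% and 7.65% of all tested genes, so the count of calls in KO was near the background. In WT, 15 of 50 were called lower and 0 higher, against 15.4% and 10.7% of all tested genes. Without spleen WT replicate 2 the count in WT was 6 of 50, all lower, against 16.6% of all genes called in either direction. The 6 were Sf3b3, Sf3a2, Snrpa, Hnrnph3, Hnrnpu and Hnrnpf, while Snrpe, Snrpd2, Snrpb, Srsf1 (adjusted p = 0.0636), Srsf6 (0.166), Hnrnpa1 (0.0772), Hnrnpa2b1 (0.0886), Hnrnpc (0.147) and Hnrnpk (0.0852) were no longer called. The WT count was 9 without VAT WT replicate 1, 6 without VAT WT replicate 3 and 25 (23 lower, 2 higher) without spleen WT replicate 3, and under median-ratio scaling 4 were called lower and 1, Srsf3, higher. The KO count was 0 when spleen KO replicate 2 was left out, 1 for spleen KO replicate 3 or VAT KO replicate 2, 2 for VAT KO replicate 1 or 3, and 10 without either spleen WT library. The groups did not overlap for 36 of the 50 genes in KO and 34 in WT, against 50.4% and 49.1% of all tested genes. Immediate early and dissociation genes moved with tissue in the same libraries, 17 of 22 being called higher in VAT in KO and 17 of 22 in WT, where Egr2 was called lower (−1.72, adjusted p = 0.0248). Ctss, taken from the myeloid list and nearly all of its summed level, was lower in VAT (−2.42 in KO and −3.89 in WT). Adgre1, from the same list and low in every library, was lower in WT (−1.02, adjusted p = 0.0137), with −0.38 (adjusted p = 0.382) in KO. Of 9 adipocyte and stroma markers looked for, only 1, Pecam1, was among the tested genes. Pecam1 was also lower in VAT (−1.25, adjusted p = 0.0157 in KO, and −1.85, adjusted p = 0.000878 in WT). The part of these genes in the lower level of the splicing genes was not tested.

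Sf3b3, Snrpa, Srsf1 and Hnrnpa2b1 were the 4 genes called lower in VAT in KO mice, and all 4 were also among the 15 called in WT mice. They come from all 4 classes. Under median-ratio scaling only Sf3b3 and Snrpa of the 4 stayed called, in both genotypes. The promoters of all 4 are shown because these members moved together in both genotypes. Each window runs from 250 bases before to 50 bases after a transcript start in a RefSeq promoter table for GRCm38.p6, the assembly of mm10, and for Srsf1 and Hnrnpa2b1 that start lies inside the ends of the gene given further on. The windows are chr8:110846754-110847053 on the minus strand for Sf3b3, chr7:27196222-27196521 on the minus strand for Snrpa, chr11:88047123-88047422 on the plus strand for Srsf1 and chr6:51469845-51470144 on the minus strand for Hnrnpa2b1. Snrpa and Hnrnpa2b1 each have 2 listed starts, of which the first is used. Letters are 5′ to 3′ on the strand of the gene, and capitals mark matches, on either strand, to the motifs given after them.
Sf3b3: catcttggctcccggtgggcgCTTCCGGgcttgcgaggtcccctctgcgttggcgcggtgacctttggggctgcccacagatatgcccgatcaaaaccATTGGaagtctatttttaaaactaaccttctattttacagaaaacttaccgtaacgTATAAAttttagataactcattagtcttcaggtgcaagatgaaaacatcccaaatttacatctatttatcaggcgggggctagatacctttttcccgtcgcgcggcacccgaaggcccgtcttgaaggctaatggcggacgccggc
Snrpa: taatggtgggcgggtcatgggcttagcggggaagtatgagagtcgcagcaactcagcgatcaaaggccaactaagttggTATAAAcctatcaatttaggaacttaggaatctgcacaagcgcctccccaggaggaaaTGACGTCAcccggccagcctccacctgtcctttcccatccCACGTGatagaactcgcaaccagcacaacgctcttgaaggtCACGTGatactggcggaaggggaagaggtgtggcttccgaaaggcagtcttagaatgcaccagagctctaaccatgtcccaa
Srsf1: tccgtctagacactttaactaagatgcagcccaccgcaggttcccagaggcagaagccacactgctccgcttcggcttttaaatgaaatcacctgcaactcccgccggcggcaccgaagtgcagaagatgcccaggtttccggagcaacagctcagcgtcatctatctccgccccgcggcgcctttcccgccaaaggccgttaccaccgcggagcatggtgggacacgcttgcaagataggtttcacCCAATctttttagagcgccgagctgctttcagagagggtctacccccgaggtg
Hnrnpa2b1: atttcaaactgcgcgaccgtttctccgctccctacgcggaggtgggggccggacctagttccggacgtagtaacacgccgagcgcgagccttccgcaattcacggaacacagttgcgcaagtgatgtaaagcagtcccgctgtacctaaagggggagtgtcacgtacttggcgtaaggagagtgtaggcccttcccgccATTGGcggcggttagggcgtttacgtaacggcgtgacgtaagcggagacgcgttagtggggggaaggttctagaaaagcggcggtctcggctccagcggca

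Short motifs were searched on both strands in the promoters of the 44 splicing genes and of the 8440 tested genes with an entry. The ETS core CCGGAAG was in the promoters of 36.4% of the splicing genes, against 22.7% of all tested genes, and of the 4 windows above only that of Sf3b3 holds it. The CCAAT box (CCAAT) was in 50% against 43.2% and is marked for Sf3b3, Srsf1 and Hnrnpa2b1. The E-box CACGTG was in 13.6% against 12.2%, and the promoter of Snrpa holds it at 2 places. Both lie downstream of a cyclic AMP response element TGACGTCA (4.55% against 3.9%), with unmarked bases between. TATAAA was in 13.6% against 8.27% and the palindromic consensus of NRF1 in 2.27% against 2.62%. The sterol element TCACCCCAC, a sequence of the kind bound by the product of Srebf2, was found in 1 of the 44 promoters, that of Hnrnpr, which is 2.27% against 0.699% of all tested genes. No marked match overlaps another in the 4 windows. A match is a description of the letters and not a binding site.

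By sign all 9 SF3A and SF3B subunits were lower in VAT than in spleen in both genotypes. Their median log2 change was −0.34 in KO and −0.38 in WT. In WT Sf3b2 was above 0 under median-ratio scaling, and Sf3b6 turned from −0.482 to 0.101 without spleen WT replicate 2. Sf3b3 (chr8:110810491-110846806) encodes a subunit of SF3B that contacts Sf3b1. Sf3b3 had 48.1, 48.5 and 45.3 RPKM in VAT KO libraries, against 79.9 and 73.8 RPKM in spleen KO libraries. In WT mice Sf3b3 had 39.3, 45.5 and 41.8 RPKM in VAT, against 62.0 and 70.1 RPKM in spleen. Every VAT library was below every spleen library in both genotypes. Its log2 change was −0.69 ± 0.13 in KO (SE, adjusted p = 0.0041, limma), a mean at 61.6% of spleen, and −0.64 ± 0.13 in WT (adjusted p = 0.00425), a mean at 63.8% of spleen. It was called in WT under all 19 alternative settings and in KO under 18 of 19, the exception being without spleen KO replicate 2 (adjusted p = 0.0571). The gene overlaps Cog4 on the genome, and the counting of reads from such overlaps is not given in the sources used here.

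Sf3a2, a subunit of SF3A, fell in WT by 0.52 on the log2 scale (SE 0.16, adjusted p = 0.0272, limma), with 16.4, 15.8 and 13.8 RPKM in VAT against 20.8 and 23.9 RPKM in spleen. That call was made under 13 of 19 alternatives, with a highest adjusted p of 0.0966, and was lost under both other scalings. In KO it had 17.2, 17.1 and 17.5 RPKM in VAT against 22.7 and 19.8 RPKM in spleen, groups that did not overlap either, with a log2 change of −0.28 and an adjusted p of 0.264. Sf3b1 had 70.1, 74.4 and 71.5 RPKM in VAT KO against 82.5 and 90.4 RPKM in spleen KO, and 58.7, 58.9 and 64.6 RPKM in VAT WT against 71.3 and 78.5 RPKM in spleen WT. Both pairs were apart, and neither difference passed the test (−0.26, adjusted p = 0.204 in KO; −0.30, adjusted p = 0.103 in WT). The summed level of the 9 subunits was 331 to 340 RPKM in VAT KO against 430 to 432 RPKM in spleen KO, and 300 to 321 RPKM in VAT WT against 395 to 413 RPKM in spleen WT.

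**Figure D2:**
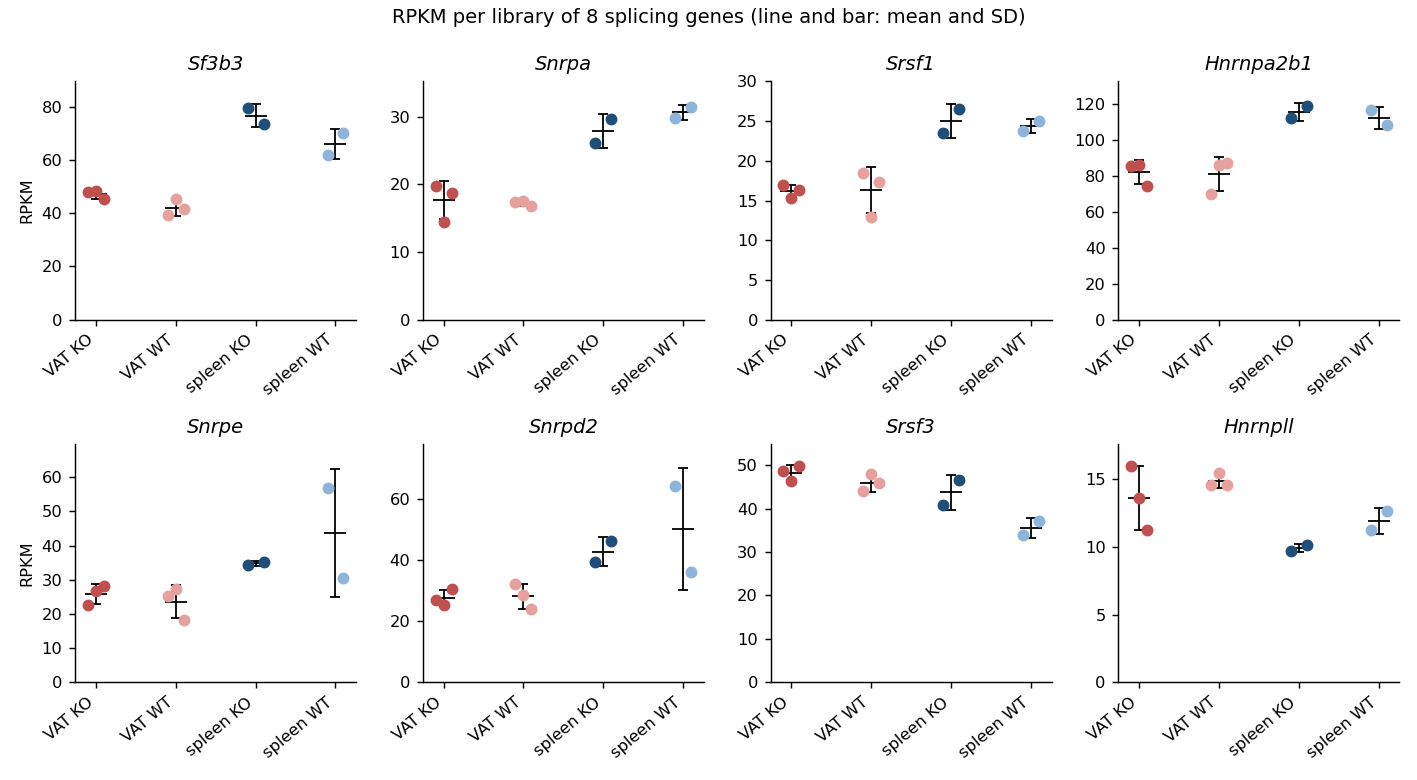
RPKM of 8 splicing genes (vertical axes) in each library of the 4 groups, with the group mean and SD. Sf3b3, Snrpa, Srsf1 and Hnrnpa2b1 are lower in VAT in both genotypes without overlap, Snrpe and Snrpd2 show spleen WT replicate 2 far above replicate 3, and Srsf3 and Hnrnpll have higher means in VAT.

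All 11 Sm and snRNP proteins were below 0 by sign in both genotypes, with a median log2 change of −0.40 in KO and −0.59 in WT, except that Snrpc was above 0 in KO under median-ratio scaling. Snrpa (chr7:27187006-27196271) encodes protein A of the U1 snRNP, which binds a stem loop of the U1 snRNA. Snrpa had 19.8, 14.5 and 18.8 RPKM in VAT KO against 26.1 and 29.6 RPKM in spleen KO, and 17.4, 17.6 and 16.8 RPKM in VAT WT against 29.9 and 31.5 RPKM in spleen WT. No VAT library reached the level of any spleen library. The log2 change was −0.64 ± 0.16 in KO (SE, adjusted p = 0.0206, limma) and −0.80 ± 0.16 in WT (adjusted p = 0.00372). In WT the call was made under all 19 alternatives, and in KO under 16. The genome holds 2 processed pseudogenes nearly identical to Snrpa, with which its reads may be shared.

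Snrpe, Snrpd2 and Snrpb encode proteins of the Sm ring and were called lower in VAT in WT mice. Snrpe had 25.2, 27.3 and 18.2 RPKM in VAT WT against 56.9 and 30.4 RPKM in spleen WT (log2 change −0.82 ± 0.24 SE, adjusted p = 0.0267, limma). Spleen WT replicate 2 was well above every other library, and without it the change was −0.37 (adjusted p = 0.269). Snrpd2 had 32.1, 28.6 and 23.9 RPKM in VAT WT against 64.3 and 36.2 RPKM in spleen WT (−0.76 ± 0.22, adjusted p = 0.0231), and −0.36 (adjusted p = 0.228) without that library. Snrpb had 74.3, 72.3 and 69.7 RPKM in VAT WT against 127 and 84.6 RPKM in spleen WT (−0.52 ± 0.17, adjusted p = 0.0357), and −0.23 (adjusted p = 0.269) without that library. Over the 19 alternatives Snrpe and Snrpd2 were each called in 15 and Snrpb in 10. All 3 calls were also lost without VAT WT replicate 3 (adjusted p = 0.0958 for Snrpe, 0.0812 for Snrpd2 and 0.0932 for Snrpb), with only the compared groups in the fit (0.0864, 0.0773 and 0.115 in the same order) and under median-ratio scaling. In KO mice, where no such library stood out, Snrpe had 22.5, 26.7 and 28.3 RPKM in VAT against 34.3 and 35.3 RPKM in spleen (−0.42, adjusted p = 0.285). There Snrpd2 had 27.0, 25.4 and 30.6 RPKM in VAT against 39.5 and 46.3 RPKM in spleen (−0.61, adjusted p = 0.0841). In KO mice Snrpb had 69.6, 75.6 and 81.0 RPKM in VAT against 95.6 and 102 RPKM in spleen (−0.39, adjusted p = 0.141). These KO groups did not overlap for any of the 3 genes, and none passed the test.

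The 2 spleen WT libraries differed in a way that followed transcript length. Short transcripts were higher in replicate 2 than in replicate 3: over all tested genes with a GENCODE length the median log2 difference was 0.66 under 1000 nt, 0.19 from 1000 nt to below 2000 nt, −0.13 from 2000 nt to below 4000 nt and −0.26 at 4000 nt or more. Sm and snRNP genes are short, with a median length of 1161 nt against 2667 nt over all tested genes, and 10 of 11 were higher in replicate 2, with a median difference of 0.73. The hnRNPs, with a median length of 2427 nt, had a median difference of 0.03. Over the 50 genes Spearman's rho between length and this difference was −0.64, and between length and the WT tissue change it was 0.46, against −0.04 for the spleen KO pair of libraries and 0.08 for the KO tissue change. Over the 9995 tested genes with a length the same values were −0.395, 0.238, −0.064 and 0.126. VAT WT replicates 1 and 3 also differed along length, with a rho of −0.296 over the 50 genes and −0.288 over all. These are descriptions across genes of shared libraries, with no test. The lengths are medians over annotated transcripts and can differ from that of the gene counted. Sf3b5 has 3841 nt by this measure, more than its whole RefSeq gene (chr10:13008450-13009183) spans, and its difference was 0.56. Without spleen WT replicate 2 the Sm and snRNP genes were still below 0 in 11 of 11 in the WT tissue comparison, and their median was −0.24, against −0.14 over all tested genes. Without replicate 3 in its place their median was −0.90, against −0.095 over all tested genes, and all 11 were called lower, against 37.4% of all genes called in either direction.

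**Figure D3:**
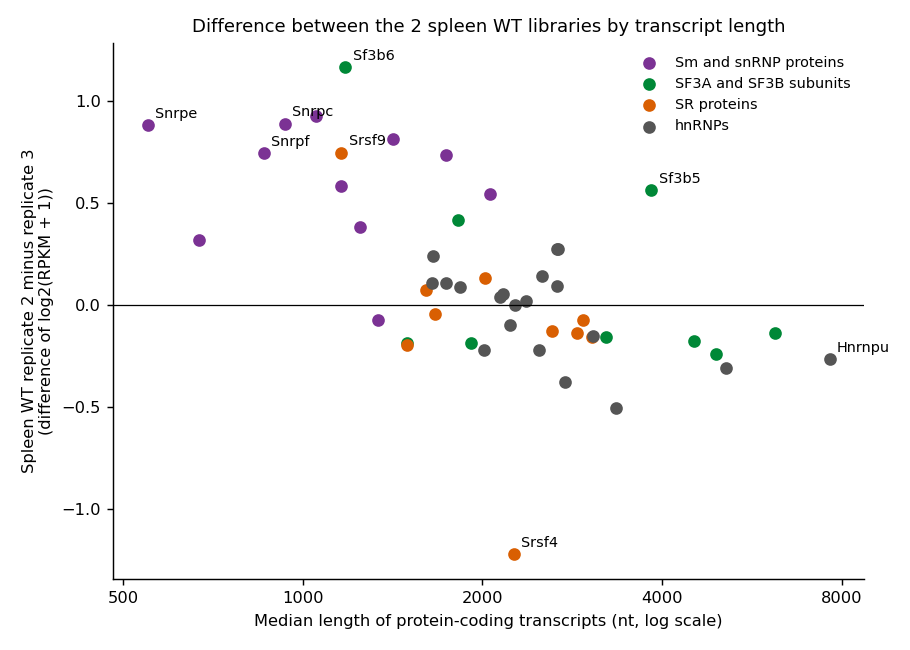
Difference in log2(RPKM + 1) between spleen WT replicates 2 and 3 (vertical axis) for the 50 splicing genes by the median length of their protein-coding transcripts (horizontal axis, log scale), coloured by class. Of the 11 Sm and snRNP genes 10 lie above 0, Snrpa lying at −0.07, and genes longer than 4000 nt lie below 0. Srsf4, with a length of 2257 nt, is the lowest of all 50 genes at −1.22. Sf3b5 is placed at 3841 nt, longer than its RefSeq gene.

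SR proteins were less uniform. By sign 8 of 10 were lower in VAT in each genotype, with medians of −0.17 in KO and −0.18 in WT, and under both other scalings Srsf11 in KO and Srsf2 and Srsf7 in WT turned to above 0. Srsf4 was above 0 in WT (0.387), and turned to −0.225 without spleen WT replicate 2. Srsf1 (chr11:88046499-88053757), also known as SF2/ASF and an archetype of the family, had 16.9, 15.3 and 16.4 RPKM in VAT KO against 23.5 and 26.5 RPKM in spleen KO. In WT it had 18.5, 13.0 and 17.3 RPKM in VAT against 23.7 and 25.0 RPKM in spleen. All VAT libraries were below all spleen libraries, and the log2 change was −0.60 ± 0.17 in KO (SE, adjusted p = 0.0355, limma) and −0.57 ± 0.17 in WT (adjusted p = 0.0295). The call was made under 12 of 19 alternatives in KO and 13 of 19 in WT. It was lost in both genotypes under both other scalings. Srsf6, another exon-binding SR protein, fell in WT by 0.46 (SE 0.16, adjusted p = 0.0495), with a mean at 71.6% of spleen, a call made under 7 of 19 alternatives and lost under both other scalings. In KO its change of −0.43 had an adjusted p of 0.0919. Srsf5, the most abundant SR protein, had 70.0, 62.0 and 55.0 RPKM in VAT KO against 76.7 and 57.8 RPKM in spleen KO, which overlap, and 63.0, 66.2 and 70.2 RPKM in VAT WT against 70.6 and 81.0 RPKM in spleen WT, which did not overlap (adjusted p = 0.744 and 0.42).

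Srsf3 went the other way in its values. This SR protein, which also takes part in mRNA export, had 48.7, 46.4 and 49.7 RPKM in VAT KO against 40.8 and 46.6 RPKM in spleen KO, and 44.0, 48.1 and 45.8 RPKM in VAT WT against 34.0 and 37.2 RPKM in spleen WT. The KO groups overlapped and the WT groups did not. The log2 change was 0.14 in KO (adjusted p = 0.538) and 0.36 ± 0.13 in WT (SE, adjusted p = 0.0662, limma). In WT it was called higher under quantile normalization and under median-ratio scaling. Hnrnpll had 16.0, 13.6 and 11.3 RPKM in VAT KO against 9.72 and 10.1 RPKM in spleen KO, and 14.6, 15.4 and 14.5 RPKM in VAT WT against 11.2 and 12.6 RPKM in spleen WT. Its VAT libraries were above its spleen libraries in both genotypes, and neither difference passed the test (0.41 ± 0.18, adjusted p = 0.149 in KO; 0.29 ± 0.18, adjusted p = 0.236 in WT). Hnrnph1, Hnrnph2 and Hnrnpl also had positive changes in both genotypes, from 0.07 to 0.27, with adjusted p from 0.301 to 0.779.

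Of the 20 hnRNPs, 15 were below 0 in each genotype, with medians of −0.19 in KO and −0.32 in WT. Hnrnpa2b1 (chr6:51460434-51470048), the most abundant of all 50 genes, had 85.7, 86.0 and 74.4 RPKM in VAT KO against 112 and 119 RPKM in spleen KO. In WT mice Hnrnpa2b1 had 70.1, 86.2 and 87.3 RPKM in VAT against 117 and 108 RPKM in spleen. The VAT libraries were all lower, with a log2 change of −0.49 ± 0.14 in KO (SE, adjusted p = 0.0344, limma) and −0.47 ± 0.14 in WT (adjusted p = 0.0281), called under 12 and 14 of 19 alternatives. Both calls were lost under median-ratio scaling. Hnrnph3, a binder of G runs, had one of the largest changes of the 50 genes in WT, not separable by its error from those of Snrpe, Snrpa and Hnrnpa1. Hnrnph3 had 8.42, 9.75 and 8.79 RPKM in VAT against 17.0 and 16.3 RPKM in spleen, or −0.82 ± 0.17 (adjusted p = 0.00377), called under all 19 alternatives. In KO Hnrnph3 had 9.02, 11.5 and 9.34 RPKM in VAT against 13.6 and 13.5 RPKM in spleen, apart but not past the test (−0.41 ± 0.17, adjusted p = 0.131). Rufy2 overlaps this gene on the genome.

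Hnrnpa1, a repressor of exon inclusion closely related to Hnrnpa2b1, had 15.0, 14.7 and 11.0 RPKM in VAT WT against 24.8 and 22.9 RPKM in spleen WT (−0.78 ± 0.21 SE, adjusted p = 0.0172, limma). It was called under 16 of 19 alternatives, and not with the replicate block (adjusted p = 0.052), without VAT WT replicate 3 (0.0672) or without spleen WT replicate 2 (0.0772). In KO it had 13.7, 15.4 and 21.3 RPKM in VAT against 21.9 and 16.8 RPKM in spleen, which overlap (−0.20 ± 0.21, adjusted p = 0.589). Its 8 near-identical processed pseudogenes make its level uncertain. Hnrnpc, which binds runs of U, Hnrnpk, which binds runs of C, Hnrnpf and Hnrnpu, a nuclear scaffold protein, were called lower in WT with log2 changes of −0.44, −0.41, −0.48 and −0.44 and adjusted p from 0.0148 to 0.0428. Over the 19 alternatives Hnrnpc was called in 6, Hnrnpk in 10, Hnrnpf in 15 and Hnrnpu in 11. All 4 calls were lost under median-ratio scaling, and those of Hnrnpc, Hnrnpk and Hnrnpu also under quantile normalization. In KO their changes were −0.24, −0.18, −0.35 and −0.39, with adjusted p from 0.076 to 0.384.

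**Figure D4:**
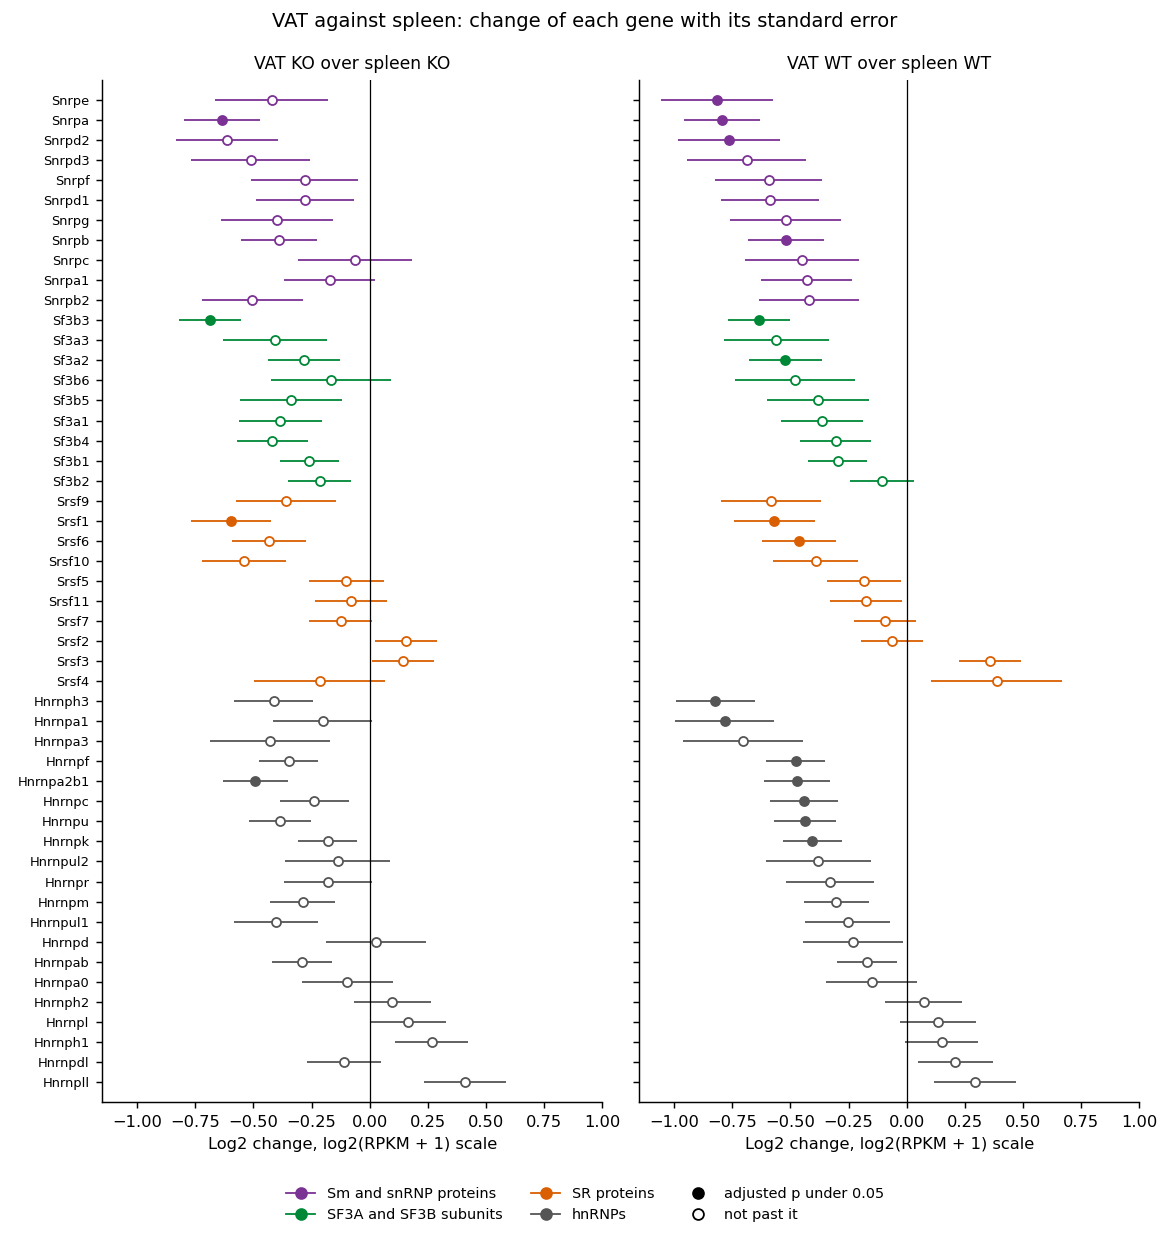
Log2 change of each of the 50 splicing genes between VAT and spleen with its standard error (horizontal axis, log2(RPKM + 1) scale), in KO on the left and WT on the right, coloured by class and filled where the adjusted p is under 0.05. In each panel 43 genes lie left of 0, 4 are filled in KO and 15 in WT, and all filled points are on the left.

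The wider splicing machinery was described with lists of other genes. Among 60 other spliceosome proteins, 47 were below 0 in KO and 49 in WT, against 58.6% and 59% of all tested genes, with medians of −0.19 and −0.27. In KO 3 were called lower, against 6.94% of all tested genes, and 0 higher: Lsm7 (−0.87 ± 0.21 SE, adjusted p = 0.0145, limma) and Lsm2 (−0.85 ± 0.26, adjusted p = 0.0409), both of the Sm-like ring found on U6 snRNA, and Cdc5l (−0.51 ± 0.16, adjusted p = 0.0469), a core part of the Prp19 complex. Lsm7 was called under 17 of 19 alternatives, and Lsm2 and Cdc5l under 9 each, with highest adjusted p of 0.342 and 0.202. Without spleen KO replicate 3 the change of Lsm2 was −0.58. In WT 14 were called lower, against 15.4% of all tested genes, and 0 higher, led by Lsm7 (−1.05 ± 0.21, adjusted p = 0.00315), Lsm4 (−0.89 ± 0.20, adjusted p = 0.00584) and Phf5a (−1.04 ± 0.23, adjusted p = 0.00633), a small SF3B subunit outside the symbol patterns. Lsm4 had 43.7, 43.7 and 39.3 RPKM in VAT WT against 105 and 59.3 RPKM in spleen WT, with spleen WT replicate 2 again the highest. Without that library the change of Lsm4 was −0.48 (adjusted p = 0.033), and Phf5a was not called (−0.76, adjusted p = 0.0668).

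Other splicing regulators were more mixed. Of 43 tested, 1 was called higher and 1 lower in KO, against 7.65% and 6.94% of all tested genes, and 2 higher and 3 lower in WT, against 10.7% and 15.4%, all of them shares below the background. Ddx5, an RNA helicase, rose in VAT in both genotypes, with 146, 148 and 170 RPKM in VAT KO against 110 and 114 RPKM in spleen KO, and 152, 136 and 156 RPKM in VAT WT against 113 and 109 RPKM in spleen WT. The groups were apart, and the log2 change was 0.46 ± 0.13 in KO (SE, adjusted p = 0.0294, limma) and 0.41 ± 0.13 in WT (adjusted p = 0.0326), called under 12 and 13 of 19 alternatives. Nono, a paraspeckle protein, fell in KO by 0.48 (adjusted p = 0.0343), a call made under 10 of 19. Qk, which encodes Quaking, rose in WT by 0.73 (adjusted p = 0.0443), while Mbnl3, of the muscleblind family, fell by 0.80 and Matr3, which encodes matrin, by 0.57 (both adjusted p = 0.0251), and Luc7l3, a U1-associated protein, by 0.64 (adjusted p = 0.0341). These calls held under 8 of 18 alternatives for Qk (0.299 to 1.083), 14 of 18 for Mbnl3 (−1.69 to −0.25), 11 of 19 for Matr3 and 12 of 19 for Luc7l3. All 4 were lost without spleen WT replicate 2 (adjusted p = 0.193 for Qk, 0.143 for Mbnl3, 0.0656 for Matr3 and 0.0965 for Luc7l3).

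SR proteins are controlled by phosphorylation, and 6 of 7 SR kinases were in the tested table. In KO 1 of the 6 was called higher in VAT and 0 lower, against 7.65% and 6.94% of all tested genes. In WT 0 were called either way, against 10.7% higher and 15.4% lower. Clk1, a nuclear kinase of SR proteins, was the only one called, with 54.0, 56.9 and 49.9 RPKM in VAT KO against 34.2 and 38.7 RPKM in spleen KO (0.54 ± 0.14 SE, adjusted p = 0.0229, limma), called under 14 of 19 alternatives. In WT Clk1 had 41.4, 45.9 and 49.1 RPKM in VAT against 32.3 and 36.6 RPKM in spleen (0.39 ± 0.14, adjusted p = 0.064). VAT libraries were above spleen libraries in both. The changes of Srpk1, Srpk2, Clk2, Clk3 and Clk4 lay between −0.20 and 0.31 in KO and between −0.41 and 0.11 in WT, with adjusted p of at least 0.243.

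The second comparison concerned the deletion of Srebf2. In VAT, 0 of the 50 splicing genes were called between KO and WT by limma, against 0.422% of all tested genes (44 genes). At an unadjusted p under 0.05 the number was also 0, against 7.35% of all tested genes. The changes were small, from −0.13 to 0.28, with a median of 0.06 against 0.02 over all tested genes, and 15 of 50 were below 0, against 45.5% of all tested genes. Under median-ratio scaling 23 were below 0, with 8 genes changing sign (Hnrnpa2b1, Hnrnpab, Hnrnpd, Hnrnph1, Snrpa, Snrpf, Snrpg and Srsf1). The 95% intervals of all 50 changes stayed within 2-fold and those of 48 within 1.5-fold. The groups were apart for 5 genes, against 15.1% of all tested genes.

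The 3 genes with the smallest p in VAT all had higher values in KO. Sf3b1 had 70.1, 74.4 and 71.5 RPKM in VAT KO against 58.7, 58.9 and 64.6 RPKM in VAT WT. These groups did not overlap, and the change was 0.24 ± 0.11 (SE, adjusted p = 0.695, limma). Srsf7, an SR protein related to Srsf3, had 64.9, 58.5 and 59.8 RPKM in VAT KO against 51.4, 51.9 and 56.0 RPKM in VAT WT (0.20 ± 0.12, adjusted p = 0.875). Hnrnpc had 21.7, 22.7 and 23.8 RPKM in VAT KO against 19.4, 17.9 and 21.2 RPKM in VAT WT (0.21 ± 0.13, adjusted p = 0.884). Sf3a2 and Hnrnpa0 were the other genes with groups apart. None of the 6 SR kinases, 60 other spliceosome proteins or 43 other regulators was called in VAT. The kinase Srpk2 had 5.65, 4.16 and 6.20 RPKM in VAT KO against 3.31, 4.33 and 2.45 RPKM in VAT WT, groups that overlap (0.55 ± 0.22, adjusted p = 0.571).

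**Figure D5:**
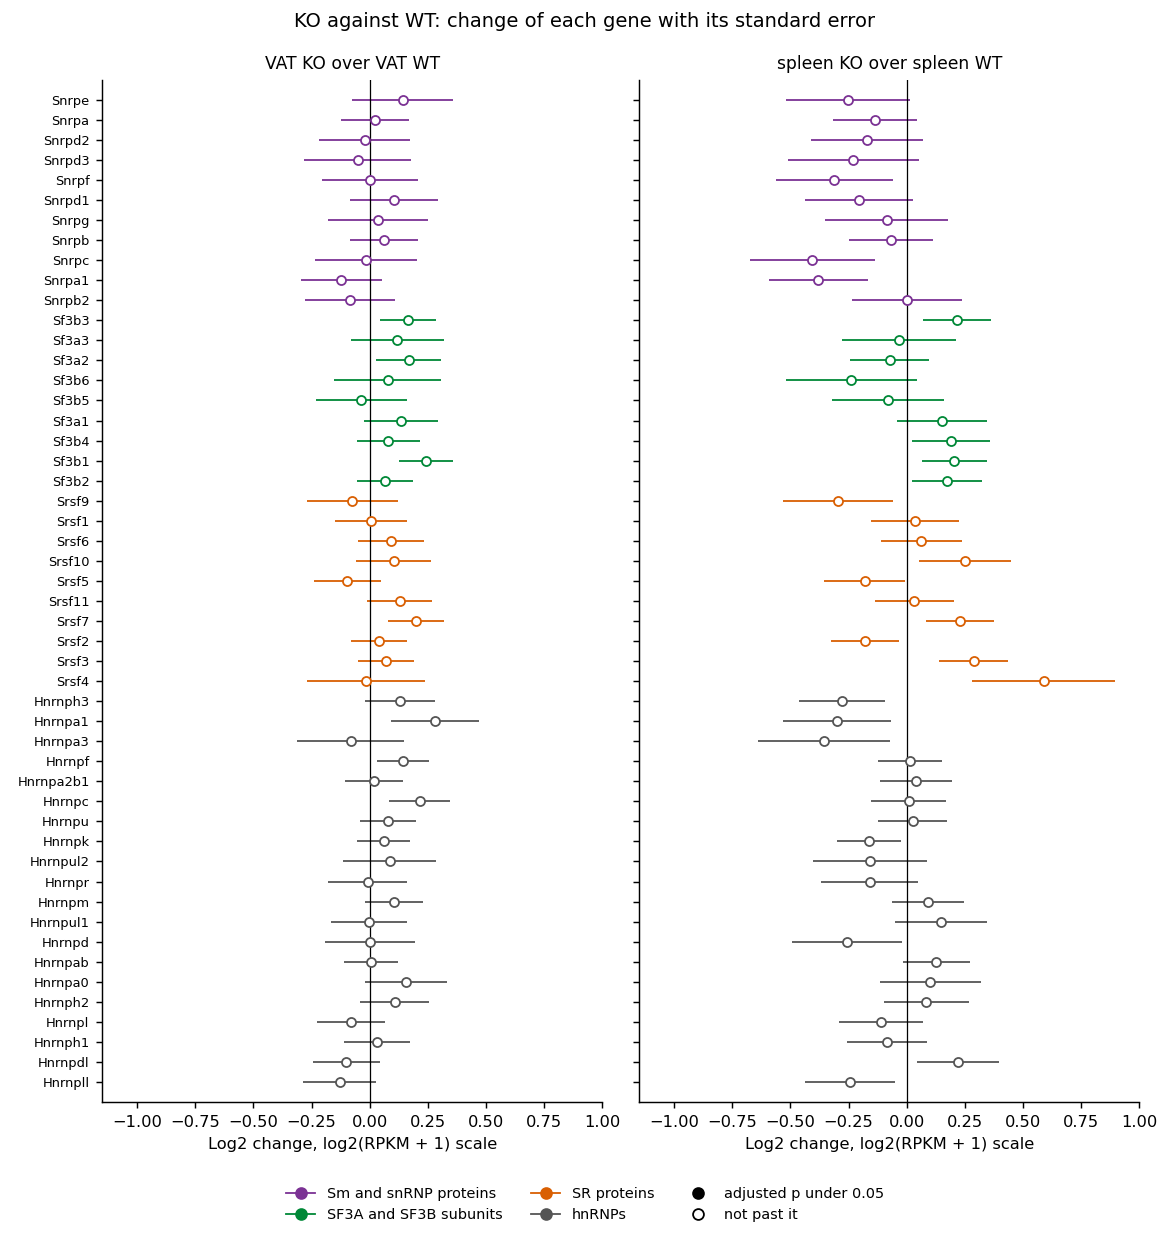
Log2 change of each of the 50 splicing genes between KO and WT with its standard error (horizontal axis, log2(RPKM + 1) scale), in VAT on the left and spleen on the right, coloured by class. No point is filled, since 0 genes passed the adjusted p, and the points lie between −0.13 and 0.28 in VAT and between −0.41 and 0.59 in spleen.

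In spleen 0 of the 50 genes were called with limma, as were 0 of 10429 (0%). At an unadjusted p under 0.05 the numbers were 0 and 873 (8.37%). The smallest adjusted p over all tested genes was 0.244, so the deleted gene Srebf2 was itself not called. Its levels were 1.59 to 2.59 RPKM in spleen KO against 10.5 to 23.2 RPKM in spleen WT libraries. The count of 0 therefore does not show that the splicing genes were unchanged. The median change of the 50 genes was −0.07, against −0.03 over all tested genes. Of the 50 genes 27 were below 0, against 53.2% of all tested genes. Sf3a3 and Snrpb changed sign under quantile normalization. The groups were apart for 19 genes, against 32.6% of all tested genes. The 95% intervals of 49 changes stayed within 2-fold and those of 28 within 1.5-fold. They use 1 spread per gene shared by all 4 groups, so they can be too narrow where the 2 spleen WT libraries differ most. Over all tested genes the median SD was 0.279 in spleen WT, against 0.148 to 0.189 in the other groups. For the 50 genes it was 0.147, against 0.098 to 0.144. The Sm and snRNP proteins had a median change of −0.21, with 10 of 11 below 0. Without spleen WT replicate 2 that median was 0.14, with 3 of 11 below 0, and without replicate 3 it was −0.57, with 11 of 11 below 0. The direction in this class thus rested on which spleen WT library was used.

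Among single genes in spleen, Srsf3 had 40.8 and 46.6 RPKM in KO against 34.0 and 37.2 RPKM in WT, apart but not past the test (0.29 ± 0.15 SE, adjusted p = 0.618, limma). Srsf4, an SR protein, had 11.3 and 12.1 RPKM in KO against 4.52 and 11.9 RPKM in WT (0.59 ± 0.31, adjusted p = 0.626). The value of 4.52 in spleen WT replicate 2 was the lowest of all 10 libraries for this gene, the others lying between 8.67 and 12.1 RPKM. Without that library the change of Srsf4 was −0.02, and without spleen WT replicate 3 it was 1.20 (adjusted p = 0.00942), a comparison with the single remaining spleen WT library, whose spread is taken from the other groups. Snrpa1, which encodes protein A′ of the U2 snRNP, had 15.0 and 14.0 RPKM in KO against 21.9 and 16.6 RPKM in WT (−0.38 ± 0.21, adjusted p = 0.638). Without spleen WT replicate 3 the calls were Srsf4 higher and Sf3b6 and Snrpc lower, against 13.4% of all genes called.

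Whether the deletion acted differently in the 2 tissues was asked with the interaction of genotype and tissue. None of the 50 genes passed it, nor did any of the 10429 (0%), and at an unadjusted p under 0.05 the numbers were 0 and 738 (7.08%) with limma. The change was below 0 for 14 of 50 genes, against 44.9% of all tested genes, with a median of 0.12 against 0.05 over all tested genes. Under median-ratio scaling 20 were below 0, and without spleen WT replicate 2 the number below 0 was 22. The smallest p belonged to Hnrnpa1 (0.58 ± 0.30 SE, adjusted p = 0.733), Hnrnph3 (0.41 ± 0.24, adjusted p = 0.767) and Srsf4 (−0.60 ± 0.40, adjusted p = 0.788). So a difference between the 15 calls of the WT tissue comparison and the 4 of the KO comparison was not shown.

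What the annotation holds on these genes bears on how the levels can be read. Many SR protein genes carry exons that send the transcript to nonsense-mediated decay and so limit their own level. GENCODE lists such transcripts for 9 of the 10 SR protein genes (90%) and for 24 of the 50 genes (48%), against 30.8% of all tested genes. RPKM is 1 value per gene and does not tell productive from decaying isoforms. For 18 of the 50 genes the genome holds at least 1 processed pseudogene with 95% identity or more over at least 200 nt. The most were 26 for Hnrnpa3. Of the genes called between tissues in WT, Hnrnpa1 had 8 such copies and Hnrnpf 6. Snrpa, Snrpd2 and Hnrnpk had 2 each, and Snrpe and Hnrnpc 1 each. Levels of all genes with such copies are uncertain where reads were shared.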

How the data were processed

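The authors deposited 1 table of RPKM values per gene and sample, per the file headers. STAR and mm10 were used, per the submitters' processing notes. Per the labels' protocols, polyA RNA was made into cDNA with SMART-seq v4 and into libraries with Nextera XT, which leaves strand unmarked. For the read counter, gene models and filter, methods were not given in the sources used here. Reads per library could not be recovered from low values, so depth is unknown and errors cover the spread between libraries only. Of 11 labelled samples, 10 had a matching column. Spleen KO replicate 1 was not analysed here. The table holds instead 1 column named for a spleen WT replicate 1, a sample that no label names, and this column was not used.

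Values were analysed as log2(RPKM + 1) over 10429 genes with at least 1 RPKM in at least 2 samples. One limma 3.58.1 model (R 4.3.3) of 4 group means, with trend, no covariate, 6 residual and 6.44 prior degrees of freedom, gave two-sided tests with Benjamini-Hochberg adjustment over all tested genes within a comparison, called at 0.05. The fit was tested on simulated data. Fold changes understate those of low genes. Values per library are given for up to 6 called members in each direction, the 3 smallest p values of a comparison with no call, the top member of each class and Hnrnpll, and from each list up to 3 called genes in each direction. Sf3a2, Srsf6, Srsf3 in the tissue comparison, Hnrnph1, Hnrnph2, Hnrnpl and the other called hnRNPs were named after their values were seen. The members and lists were chosen with earlier results of these data known. Genes were matched by Entrez identifier to RefSeq (GRCm38.p6) for coordinates, overlaps and promoters, and by symbol to GENCODE for transcript lengths and biotypes. Near copies were found with blastn 2.17.0. Settings tried besides were no filter, pseudocounts of 0.1 and 5, a mean of at least 5 RPKM, quantile and median-ratio scaling, only the compared groups, a robust spread, a replicate block and each library left out.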

Additional observations from a re-analysis of the deposited data

How the results depend on the processing

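In VAT the count of splicing genes called between KO and WT was 0 under every alternative run. For VAT against spleen in WT the count of 15 became 5 under median-ratio scaling, 4 with only the compared groups, 6 with the replicate block and 6 to 25 with a library left out. In KO the count of 4 became 2 under median-ratio scaling, 9 with only the compared groups and 0 to 10 with a library left out, 0 being without spleen KO replicate 2. Counts with a library left out were 0 to 3 in spleen between KO and WT and 0 to 2 for the interaction, above 0 without spleen WT replicate 3. The labels do not say whether equal replicate numbers mark the same mouse. Same-numbered samples deviated together with correlations of −0.15 to 0.18, which cannot settle this in groups of 2 or 3 libraries. The replicate block, run as a setting only, gave 6 calls in WT and 3 in KO. The cause of these shifts was not tested. Fits with a library left out also hold fewer samples, and their counts moved both up and down.

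Other splicing genes whose sign turned under another scaling between tissues or between genotypes are named with those comparisons. Among the genes picked out for values per library, signs turned in log2 changes that had not been called. Under median-ratio scaling they were −0.019 for Hnrnpa2b1 in VAT between KO and WT, 0.052 for Srpk1 in WT between VAT and spleen, 0.054 for Clk4 in WT between VAT and spleen, 0.083 for Clk3 in KO between VAT and spleen and −0.011 for Sf3b1 for the interaction. Under quantile normalization they were 0.043 for Snrpb in spleen between KO and WT, 0.015 for Srpk1 in WT between VAT and spleen, 0.021 for Clk4 in WT between VAT and spleen, 0.064 for Clk3 in KO between VAT and spleen and −0.049 for Sf3b1 for the interaction. With a pseudocount of 0.1 they were 0 for Clk3 in KO between VAT and spleen. With a library left out, the ranges of those changes whose sign turned were as follows. In VAT between KO and WT they were −0.082 to 0.087 for Hnrnpa2b1. In spleen between KO and WT they were −0.383 to 0.020 for Srsf5, −0.015 to 0.094 for Hnrnpa2b1, −0.024 to 1.200 for Srsf4 and −0.360 to 0.223 for Snrpb. In WT between VAT and spleen they were −0.155 to 0.017 for Srpk1, −0.113 to 0.285 for Clk2 and −0.172 to 0.396 for Clk3. In KO between VAT and spleen they were −0.207 to 0.205 for Clk3, −0.302 to 0.101 for Srsf5 and −0.020 to 0.108 for Clk4. For the interaction they were −0.117 to 0.287 for Srsf5, −0.001 to 0.235 for Hnrnpll, −0.122 to 0.047 for Hnrnpa2b1, −0.031 to 0.106 for Sf3b1, −1.215 to 0.009 for Srsf4 and −0.162 to 0.421 for Snrpb.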
